A study of Mus musculus with 12 samples.

Results

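The collagen chain genes were taken as every row of the FPKM table whose symbol is Col, a number, a and a number. The rule found 42 of 23660 genes in that table, of which 10 encode fibrillar chains, 6 encode basement membrane chains of type IV, and 26 encode chains of other types. The files' descriptions name 8 further rows as collagen chains under other symbols, among them Col1a2, and these are given separately. RNA was measured in ventricle tissue of wild-type male C57BL/6J mice aged 6 to 8 weeks, per the labels, in 4 groups of 3 samples. Sham animals are labelled as sham, and in MI (myocardial infarction) the left anterior descending coronary artery was tied off. Hearts of Fer-1+MI were ligated under ferrostatin-1 (Fer-1; 1 mg per kg per day), and those of Lip-1+MI under liproxstatin-1 (Lip-1; 3 mg per kg per day), with dosing begun 24 h ahead of surgery. Both compounds trap lipid radicals and inhibit ferroptosis, an iron-dependent form of cell death. The labels do not give the interval from surgery to tissue collection, a vehicle for the Sham and MI groups, or whether each sample is a separate animal, so a p-value here covers only the spread between these samples, which may be technical.

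Collagens are the main structural proteins of the extracellular matrix, and each molecule is a helix of 3 chains. In the heart, type I and type III collagen form the fibrils that hold muscle bundles together and that build the scar after infarction, while type IV collagen forms the sheet-like basement membrane around muscle cells and capillaries. Chains are hydroxylated and folded in the endoplasmic reticulum, trimmed and crosslinked outside the cell, and broken down by matrix metalloproteinases and by uptake and lysosomal digestion.

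Total counts ranged from 45.5 to 60.8 M per sample, and 38 of the 42 chains (10 fibrillar, 6 basement membrane and 22 other) passed the filter on low counts. Gene identifiers in the files carry the prefix Ensembl uses for rat, although the labelled species is mouse, and no source used here names the build. Coordinates below are those of the files, apart from the promoter windows, and they are not those of mouse build GRCm38.p6. In that build Col1a2 lies on chromosome 6 and Col4a2 on chromosome 8, while the files place them on 4 and 16. Of 12 cardiomyocyte markers 11 were found and none was at 0. Their summed level was 10865 to 13052 FPKM per sample, with 5246 FPKM for Actc1 and 1234 for Myh6 but 23.8 for Mb and 40.9 for Ckm. Whether such levels go with the labelled species, tissue and age was not tested. FPKM is the authors' fragment count per length of gene and per library size, and CPM below is a count scaled to a common library size after TMM scaling, which centres the bulk of genes. With scaling by library size alone, the median log2 fold change of all tested genes against Sham was -0.17 for MI, -0.16 under Fer-1 and -0.19 under Lip-1, while with TMM it was between -0.02 and 0.00.

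The collagen transcripts were dominated by a few chains. Col1a1, the main chain of type I collagen, had the highest mean over the 12 samples at 1883 FPKM. Among the chains found by symbol, the basement membrane chains Col4a1 and Col4a2 followed at 864 and 649.9 FPKM. Col3a1, the chain of type III collagen, came next at 582 FPKM. Col6a1 and Col6a2, which form the beaded filaments of type VI collagen around cells, were at 519 and 498 FPKM. These 6 chains held 86.6% of the FPKM summed over the chains found by symbol in Sham and 85.6% in MI. Col1a2, listed under another symbol, is left out of this ranking, these shares and the level counts below. Its rows had means over the 12 samples of 728 and 308 FPKM. The row with more reads alone thus lay above Col4a2. By level, 10 chains had a mean of at least 100 FPKM, 8 were between 10 and 100, 9 between 1 and 10, and 15 were under 1. Besides the 6 leading chains found by symbol, Col5a1 and Col5a2 of type V (171 and 169.7 FPKM), Col12a1 (123) and Col18a1 (104) were above 100 FPKM. The cartilage chains Col2a1, Col9a1, Col9a2, Col9a3, Col10a1 and Col11a2 were all under 1 FPKM. The lowest 7 chains, with means under 0.1 FPKM in every group, were Col6a4, Col6a5, Col9a1, Col10a1, Col19a1, Col25a1 and Col28a1. Of these Col6a4, Col10a1, Col25a1 and Col28a1 were not tested.

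**Figure D1:**
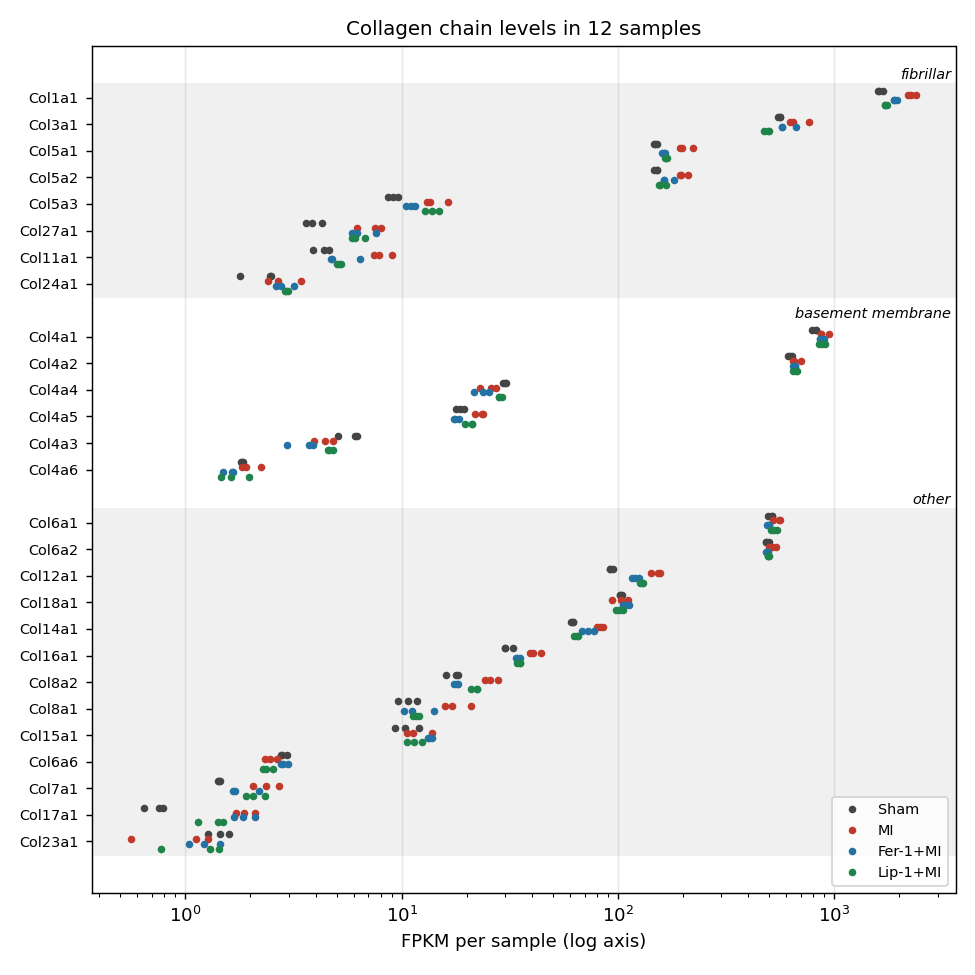
FPKM per sample on a log axis for the 27 chains with a mean of at least 1 FPKM, grouped as fibrillar, basement membrane and other, with 1 point per sample and the 4 groups in colour. Col1a1 lies highest, and within most fibrillar rows the 3 MI samples lie to the right of the 3 Sham samples.

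Summed over the 42 chains, collagen FPKM averaged 5318 ± 85 for Sham and 6517 ± 330.5 for MI, with 5808 ± 97 under Fer-1 and 5574 ± 59 under Lip-1 (SD, n = 3). The 3 MI samples lay between 6284 and 6895 and overlapped no other group. The fibrillar sum was 2497 ± 47 in Sham and 3395 ± 203 in MI, and 2864 ± 101 with Fer-1 and 2575 ± 8.1 with Lip-1. The basement membrane sum was 1488 ± 32 for Sham, 1614 ± 79 for MI, 1570.4 ± 21 under Fer-1 and 1595 ± 41 under Lip-1. Of the FPKM of the 42 chains, fibrillar chains thus held 46.9% ± 0.44 for Sham, 52.1% ± 0.55 for MI, 49.3% ± 0.94 under Fer-1 and 46.2% ± 0.35 under Lip-1. Basement membrane chains held 27.98% ± 0.19, 24.8% ± 0.057, 27.05% ± 0.70 and 28.6% ± 0.44 in the same order. These shares do not depend on how libraries were scaled. The sums and shares leave out the fibrillar chain Col1a2, and the fibrillar share with it would be higher in every group. Its 2 rows had means of 649 and 271 FPKM in Sham and 874 and 370 in MI. Under Fer-1 they had 733 and 283, and under Lip-1 657 and 309. In bulk tissue, more cells of a type and more RNA per cell cannot be told apart.

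**Figure D2:**
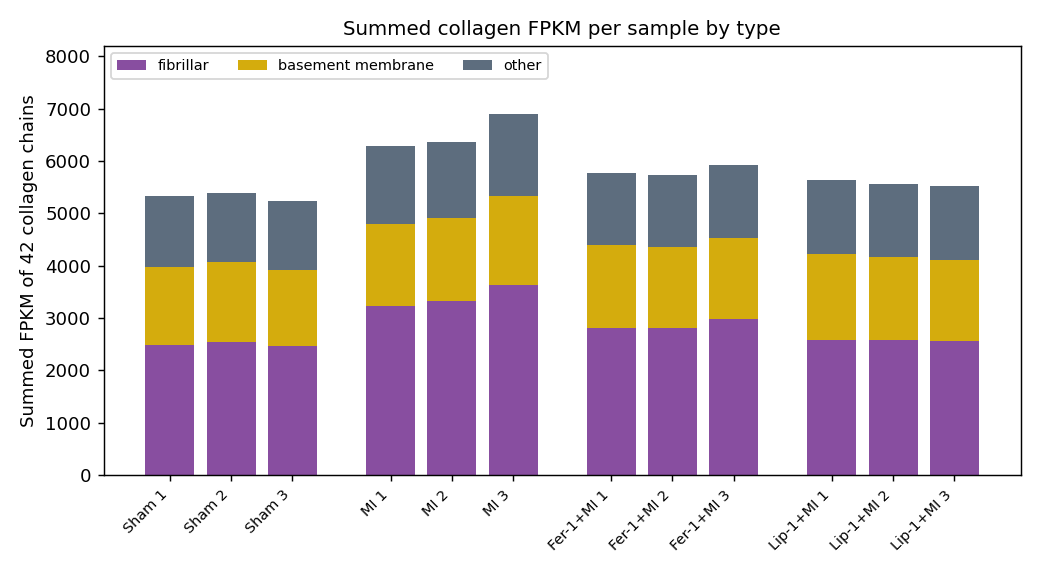
Summed FPKM of the 42 collagen chains in each of the 12 samples, stacked by fibrillar, basement membrane and other chains. The MI bars reach 6284 to 6895 FPKM and the Sham bars 5228 to 5396, and most of the difference lies in the fibrillar segment.

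MI against Sham asks how coronary ligation changed each chain. Most collagen chains rose. Of the 38 tested chains 23 were higher in MI (60.5%, beside 22.8% of all genes) and 2 were lower (5.26%, beside 20.8% of all genes), by edgeR's quasi-likelihood test with Benjamini-Hochberg adjustment over 16910 genes at 0.05. Library size alone gave 16 higher and 4 lower, beside 2414 higher and 5943 lower of all 16910 genes. Fibrillar chains had the highest median log2 fold change, 0.59, with 8 of 10 higher and 1 lower. The other types had a median of 0.46 with 12 of 22 higher and none lower, and the basement membrane chains a median of 0.26 with 3 of 6 higher and 1 lower, beside -0.0044 over all genes tested. With library size only, these medians were 0.42, 0.30 and 0.10, with 7 fibrillar chains higher and 1 lower, 7 of the other types higher and 1 lower, and 2 basement membrane chains higher and 2 lower. The difference between the types was not tested. In 26 chains every MI sample lay above every Sham sample (beside 27.1% of all genes) and in 1 chain below (beside 26.7%).

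Among fibrillar chains, Col1a1 (ENSRNOG00000003897, chromosome 10, 82745801 to 82762789, plus strand) stood at 9975, 10378 and 9715 CPM for Sham, 15259.6, 15328 and 16455 for MI, 13039, 12659 and 12932 under Fer-1, and 11778, 12024 and 11679 under Lip-1. All MI samples lay above all Sham samples, and both treated groups lay in between without overlap. Col1a1 rose by 0.65 ± 0.04 on the log2 scale in MI (adjusted p = 3.7e-10 in edgeR). Col1a2, the partner chain of type I collagen, is held in the files by 2 near-identical rows on chromosome 4, at 31534225 to 31569151 and at 29529854 to 29564768, so reads could fall to either row and its level is uncertain. The row with more reads stood at 3167, 2915 and 3177 CPM for Sham, 4649.7, 4689.6 and 4513 for MI, 3782, 3679 and 3977 under Fer-1, and 3354, 3654 and 3359.7 under Lip-1. It rose by 0.58 ± 0.05 in MI (adjusted p = 1.2e-08), and the other row by 0.60 ± 0.17 (adjusted p = 0.0216), from 1201, 1633 and 1132 CPM in Sham to 1821, 1739 and 2467 in MI. Col3a1 (ENSRNOG00000003357, chromosome 9, 52023295 to 52059217, plus strand), whose model overlaps the unnamed gene AABR07067556.1 over 141 bases in the files, stood at 2798, 2844 and 2807 CPM for Sham, 3566, 3571 and 4296 for MI, 3257, 3151 and 3627 under Fer-1, and 2777, 2664 and 2788 under Lip-1. MI replicate 3 was well above the other MI samples, and all Lip-1+MI samples lay below all Sham samples. Col3a1 rose by 0.44 ± 0.06 in MI (adjusted p = 2.6e-05).

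Type V collagen co-assembles with type I and controls the start of fibrils. Its chain Col5a1 (ENSRNOG00000008749, chromosome 3, 6430201 to 6578882, plus strand) stood at 1059, 1031 and 1002 CPM for Sham, 1533, 1464 and 1711 for MI, 1237, 1228 and 1225 under Fer-1, and 1289, 1258 and 1274 under Lip-1. Col5a2 (ENSRNOG00000003736, chromosome 9, 52092511 to 52238564, minus strand), which lies 33293 bases from Col3a1 on the opposite strand, stood at 729, 726 and 688 CPM for Sham, 1053, 1012 and 1111 for MI, 874, 842 and 930.0 under Fer-1, and 876, 821 and 823 under Lip-1. For both chains the MI samples lay above every other sample and the Sham samples below. Col5a1 rose by 0.61 ± 0.05 (adjusted p = 1.0e-08) and Col5a2 by 0.57 ± 0.05 (adjusted p = 2.2e-08). Col5a3, the less common type V chain, stood at 55.8, 62.3 and 57.9 CPM for Sham, 94.9, 95.5 and 117 for MI, 79.1, 73.1 and 79.5 under Fer-1, and 98.4, 106 and 91.1 under Lip-1. Its Lip-1+MI samples overlapped MI, and its Fer-1+MI samples lay between Sham and MI. It rose by 0.80 ± 0.08 in MI (adjusted p = 2.1e-07).

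The minor fibrillar chains Col11a1, a chain of type XI collagen that sets fibril diameter in cartilage, and Col27a1 had the largest rises of the class, by 1.07 ± 0.10 (adjusted p = 5.4e-07) and 1.05 ± 0.12 (adjusted p = 6.4e-06), at low levels of 4.29 and 3.92 FPKM in Sham. Col24a1 rose by 0.49 ± 0.13 (adjusted p = 0.00653), and this call was lost without MI replicate 3 (0.0589) and with library size only (0.0568). Col2a1, the main cartilage chain, had 0.41 ± 0.22 (adjusted p = 0.14). Col11a2, the partner of Col11a1, was the fibrillar chain that fell. It stood at 1.27, 0.982 and 1.36 CPM for Sham, 0.840, 0.356 and 0.576 for MI, 1.61, 0.932 and 0.771 under Fer-1, and 0.588, 0.703 and 0.400 under Lip-1. Its MI samples lay below the Sham samples, but the levels were near 1 CPM. It fell by 1.04 ± 0.38 (adjusted p = 0.0341), and the call was lost without Sham replicate 1 or 3 or MI replicate 2 or 3 (adjusted p = 0.0781 to 0.141).

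**Figure D3:**
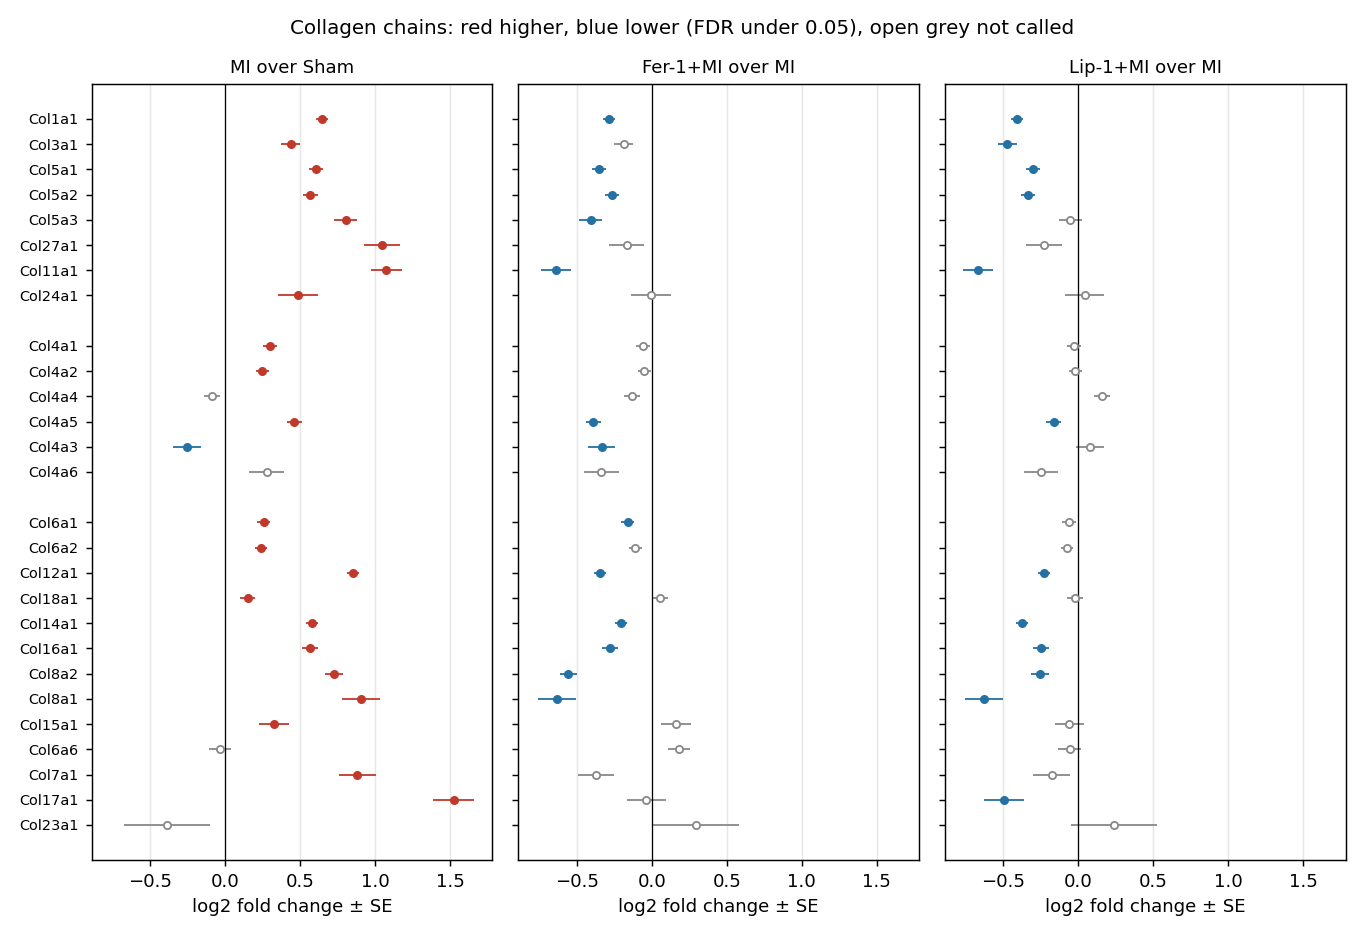
Log2 fold change with its SE for the 27 chains with a mean of at least 1 FPKM, in MI over Sham and in each treated group over MI; filled points passed an adjusted p under 0.05 and open points did not. In MI over Sham the points lie to the right of 0 for all 8 fibrillar chains shown; with library size only the value of Col18a1 turned to -0.01 and the calls of Col4a2, Col6a1, Col6a2, Col15a1, Col18a1 and Col24a1 were lost.

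To show the sequence in front of collagen genes, promoter windows were read from RefSeq for mouse (build GRCm38.p6), the labelled species. They ran from 250 bases before to 50 after the start of transcription. Windows were matched for 33 of the 42 chains. They were searched for CCAAT, the box bound by the factor CBF/NF-Y that is known to act on type I collagen promoters, on both strands (ATTGG on the reverse). The table holds 38 windows for 35 collagen genes, Col1a2 among them. Of these 38 windows 13 held it (34.2%), beside 12289 of 32851 windows over all genes (37.4%), and the shares were not tested against each other. The 3 fibrillar windows with the motif are shown from -130 to -1, next to Col16a1, a fibril-associated chain with the motif at a like place, and to the 30 bases around it in Col4a2; the motif is in capitals.
Col1a2, chr6:4505488-4505617, plus strand: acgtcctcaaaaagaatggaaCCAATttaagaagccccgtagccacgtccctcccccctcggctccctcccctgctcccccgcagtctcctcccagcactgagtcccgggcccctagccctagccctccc
Col11a1, chr3:114030410-114030539, plus strand: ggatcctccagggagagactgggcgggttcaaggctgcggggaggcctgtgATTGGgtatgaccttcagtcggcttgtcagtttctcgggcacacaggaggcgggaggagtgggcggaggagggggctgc
Col5a3, chr9:20815068-20815197, minus strand: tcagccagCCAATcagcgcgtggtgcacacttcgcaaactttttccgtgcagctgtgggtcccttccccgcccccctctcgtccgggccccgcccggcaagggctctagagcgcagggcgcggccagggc
Col16a1, chr4:130047710-130047839, plus strand: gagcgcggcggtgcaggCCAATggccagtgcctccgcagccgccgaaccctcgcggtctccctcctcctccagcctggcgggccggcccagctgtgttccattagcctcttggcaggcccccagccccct
Col4a2, chr8:11312760-11312789, plus strand: cccgaggagctccCCAATttgttggcgctg
The motif's first base lies at -109 in Col1a2, -79 in Col11a1, -122 in Col5a3, -113 in Col16a1 and -32 in Col4a2. Col1a2 also holds ATTGG from position 1, past the stretch shown. No match was found for Col1a1, Col3a1, Col5a1 or Col5a2, which can mean either no motif or no window. The fibrillar windows covered 8 genes, Col1a2 among them. The chains shown include strong and weak risers in MI, from 0.25 for Col4a2 to 1.07 for Col11a1. A match is a description of the letters and not a bound site.

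Type IV collagen makes the network of basement membranes. Its ubiquitous chains Col4a1 and Col4a2 lie head to head on opposite strands of chromosome 16 in the files. Their models there are 83600 bases apart, and whether these models are complete was not tested. Col4a1 (ENSRNOG00000016281, chromosome 16, 83522162 to 83632153, plus strand) stood at 5765, 5762 and 5428 CPM for Sham, 6812, 6651 and 7371 for MI, 7002, 6531 and 6476 under Fer-1, and 7021, 6812 and 6559.9 under Lip-1. Col4a2 (ENSRNOG00000023972, chromosome 16, 83387364 to 83438561, minus strand) stood at 3289.7, 3363 and 3159 CPM for Sham, 3825, 3729.8 and 4089 for MI, 3849, 3753 and 3656 under Fer-1, and 3885, 3870.2 and 3735 under Lip-1. The 3 ligated groups overlapped each other and lay above Sham for both chains. Col4a1 rose by 0.30 ± 0.05 in MI (adjusted p = 4.8e-05) and Col4a2 by 0.25 ± 0.04 (adjusted p = 1.1e-04), and with library size only the call of Col4a2 was lost (adjusted p = 0.0824).

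The minor type IV chains split. Col4a5, on chromosome X, assembles with Col4a3 and Col4a4 in kidney and lung basement membranes and with Col4a6 around smooth muscle. It stood at 134, 123 and 126 CPM for Sham, 169, 178 and 181 for MI, 135, 137 and 131 under Fer-1, and 161, 161 and 149 under Lip-1. Its MI samples lay above every other sample, and the Fer-1+MI samples overlapped Sham. Col4a5 rose by 0.46 ± 0.05 in MI (adjusted p = 2.9e-07). Col4a3 and Col4a4 are head to head on chromosome 9 in the files, with 373 bases between their models there. Col4a3 stood at 44.5, 36.1 and 42.8 CPM for Sham, 31.4, 37.1 and 34.7 for MI, 23.5, 29.9 and 28.5 under Fer-1, and 37.6, 35.7 and 35.9 under Lip-1. Its lowest values were in Fer-1+MI, while MI and Sham overlapped by 1 sample. Col4a3 fell by 0.26 ± 0.09 in MI (adjusted p = 0.0305), and the call was lost without Sham replicate 1 or 3 or MI replicate 1 or 3 (adjusted p = 0.0657 to 0.142). Col4a4 stood at 352, 343 and 347 CPM for Sham, 301, 346 and 334 for MI, 279, 319 and 297 under Fer-1, and 361, 375 and 360.1 under Lip-1. Sham and MI overlapped, and its value was -0.09 ± 0.05 (adjusted p = 0.198), but with library size only Col4a4 was called lower. Col4a6 had 0.28 ± 0.12 (adjusted p = 0.0621).

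**Figure D4:**
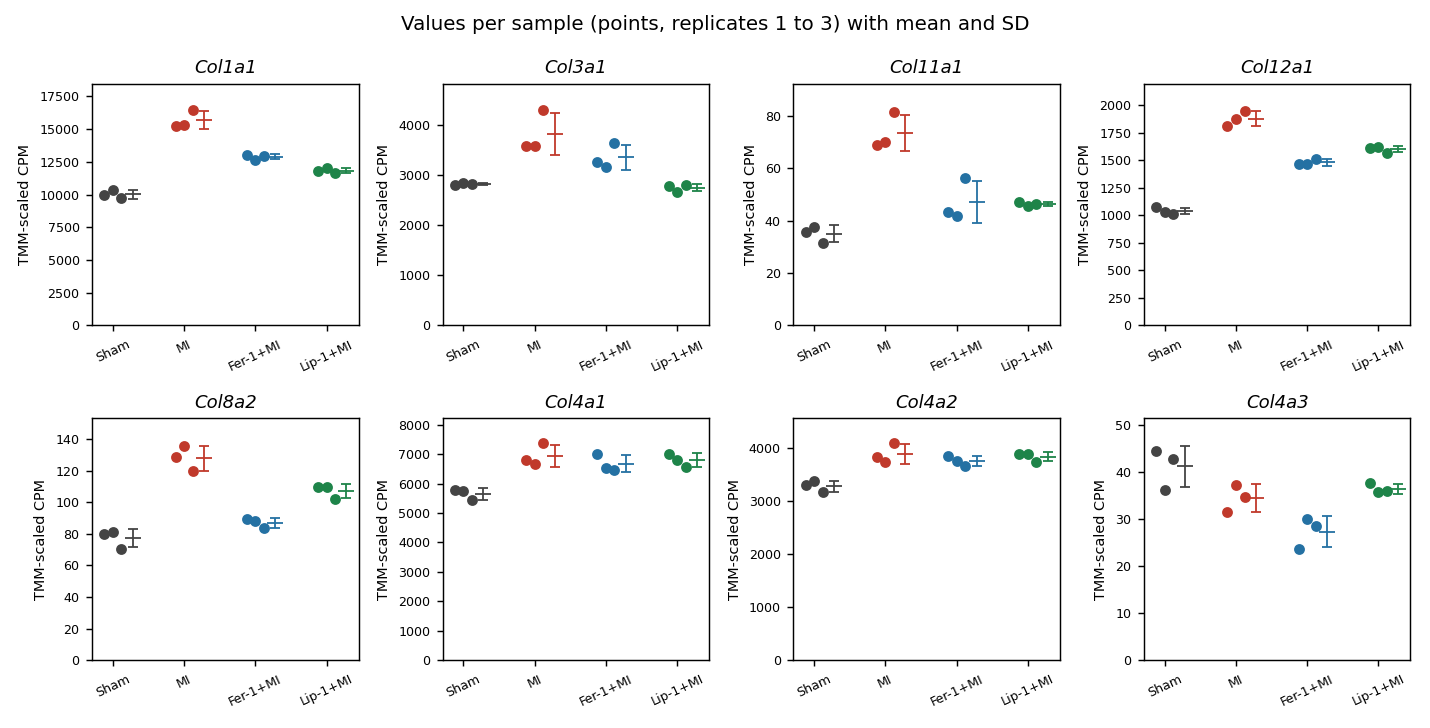
TMM-scaled CPM per sample for 8 chains, with the 3 replicates of each group as points and the mean with SD beside them. Col1a1, Col11a1 and Col12a1 are highest in MI and intermediate in both treated groups, Col3a1 in Lip-1+MI is just below Sham, and Col4a1 and Col4a2 are alike in the 3 ligated groups.

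Of the chains that sit on fibrils or join them to other structures, Col12a1 and Col14a1 are fibril-associated collagens that coat type I fibrils in tissues under tension. Col12a1 (ENSRNOG00000058470, chromosome 8, 87040799 to 87158368, minus strand) stood at 1074, 1034 and 1017 CPM for Sham, 1812, 1876 and 1951 for MI, 1463, 1464 and 1517 under Fer-1, and 1611, 1622 and 1572 under Lip-1. The groups did not overlap, in the order Sham, Fer-1+MI, Lip-1+MI, MI. Col12a1 rose by 0.85 ± 0.04 in MI (adjusted p = 8.9e-12), the smallest p of the 38 tested chains. Col14a1 (ENSRNOG00000026415, chromosome 7, 95074236 to 95273298, plus strand) stood at 351, 354 and 351 CPM for Sham, 517, 519 and 544 for MI, 439, 454 and 479 under Fer-1, and 410.4, 396 and 411 under Lip-1. The groups again did not overlap, with Lip-1+MI here below Fer-1+MI. It rose by 0.58 ± 0.04 (adjusted p = 2.5e-09). Of the 9 fibril-associated chains 4 were higher and none lower; Col16a1 rose by 0.57 and Col9a2 by 0.80, the latter at under 1 FPKM and lost without MI replicate 3 (adjusted p = 0.259), any Sham replicate or either of Fer-1+MI replicates 2 and 3, with library size only (0.106) and in DESeq2 (0.0534).

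All 5 tested network, anchoring and multiplexin chains were called higher. Col8a2, a short network-forming chain of vessel walls and the cornea, stood at 80.2, 81.4 and 70.6 CPM for Sham, 129, 136 and 119.7 for MI, 89.5, 88.5 and 83.5 under Fer-1, and 109.6, 109.8 and 102 under Lip-1. Its MI samples were above every other sample, and those of Fer-1+MI lay just above Sham. Col8a2 rose by 0.73 ± 0.06 (adjusted p = 1.4e-08) and its partner Col8a1 by 0.91 ± 0.13 (adjusted p = 1.2e-04). Col7a1, the chain of the anchoring fibrils of skin, rose by 0.88 ± 0.12 at 1.43 FPKM in Sham. Col15a1 and Col18a1, proteoglycans of the basement membrane zone from which the fragments restin and endostatin are cut, rose by 0.32 ± 0.10 and 0.15 ± 0.05 (adjusted p = 0.0175 and 0.0305), but the value of Col18a1 turned to -0.01 and both calls were lost with library size only. Without MI replicate 3 both calls were also lost (0.0718 and 0.206), as they were without Sham replicate 1, without Sham replicate 2 for Col15a1 and without Sham replicate 3 for Col18a1. Of type VI, Col6a1 rose by 0.26 ± 0.04 and Col6a2 by 0.24 ± 0.04, both lost with library size only (adjusted p = 0.0754 and 0.12), and Col6a6 had -0.03 ± 0.08. The type VI chain alpha 3 is listed under the symbol AABR07068316.1 (ENSRNOG00000019648). It stood at 286, 278 and 277 CPM for Sham, 437, 457 and 533 for MI, 333, 349 and 374 under Fer-1, and 346, 363 and 351 under Lip-1. Its MI samples were above every other sample, and it rose by 0.76 ± 0.06 (adjusted p = 1.1e-08). The other 5 rows described as collagen were not called in MI against Sham or in either treated group against MI, and the one described as like alpha 3 of type IV (LOC100911572, at 2.18 FPKM) was called lower in Fer-1+MI against Sham. In MI against Sham the row like type XV, at 11.8 FPKM, had 0.39 (adjusted p = 0.0664 in edgeR). The type XXIII row had 0.22 and the row like alpha 3 of type IV -0.45. Those like types XXV and XI lay under 0.1 FPKM in every group. Among transmembrane chains, Col17a1, a protein of the hemidesmosomes that fix epithelium to its basement membrane, stood at 3.82, 4.49 and 4.60 CPM for Sham, 12.5, 11.02 and 13.7 for MI, 13.9, 11.8 and 10.6 under Fer-1, and 9.76, 7.45 and 9.18 under Lip-1. Every ligated sample lay above every Sham sample, at 0.730 FPKM in Sham and 1.89 in MI. Col17a1 rose by 1.52 ± 0.14 (adjusted p = 5.1e-08), the largest called change of the 38 tested chains. Col13a1, Col23a1 and Col26a1 had values of 0.05, -0.39 and 0.68 and did not pass.

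Ratios within a sample do not depend on library scaling. The FPKM ratio of Col1a1 to Col1a2, with both Col1a2 rows summed, was 1.76 ± 0.014 for Sham, 1.83 ± 0.011 for MI, 1.87 ± 0.0026 under Fer-1 and 1.79 ± 0.015 under Lip-1. The ratio of Col4a1 to Col4a2 was 1.30 ± 0.016, 1.34 ± 0.0089, 1.34 ± 0.030 and 1.33 ± 0.021 in the same order. Both were slightly higher in each MI sample than in each Sham sample (log2 difference 0.06 and 0.05; exact permutation test, two-sided, p = 0.1, the smallest that 3 against 3 allows). Col1a1 to Col4a1 went from 2.00 ± 0.043 in Sham to 2.55 ± 0.045 in MI, with 2.18 ± 0.076 in Fer-1+MI and 1.97 ± 0.063 in Lip-1+MI. Col1a1 to Col3a1 was 2.91 ± 0.077, 3.38 ± 0.22, 3.16 ± 0.21 and 3.53 ± 0.14 in that group order.

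**Figure D5:**
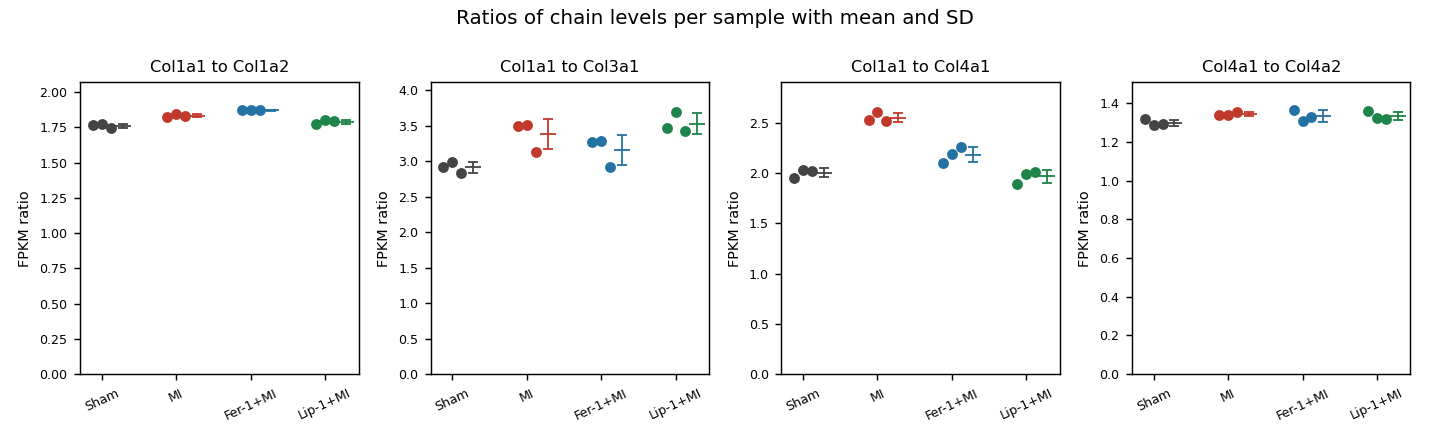
FPKM ratios between chains per sample, with points for the 3 replicates of each group and the mean with SD. The chains that share a molecule (Col1a1 with Col1a2, Col4a1 with Col4a2) keep ratios within 1.76 to 1.87 and 1.30 to 1.34 across group means, while Col1a1 to Col4a1 is 2.55 in MI and 2.00 in Sham.

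Genes that make, process, bind and break down collagen were read from 8 lists chosen with earlier results of these data known. Over all genes tested, 22.8% were higher and 20.8% lower in MI against Sham with TMM, and the TMM counts below stand beside those shares. Counts by library size alone stand beside 2414 higher and 5943 lower of all 16910 genes at that scaling. Of 14 tested genes of prolyl and lysyl hydroxylation 10 rose and none fell (9 higher and 3 lower by library size alone): P4ha1, a catalytic subunit of prolyl hydroxylase, rose by 1.01 ± 0.04 and P4ha2 by 0.74 ± 0.05. Of 11 chaperone and secretion genes 9 rose and 1 fell (3 higher and 1 lower by library size alone), led by Creb3l1, a transcription factor of collagen secretion, by 0.93 ± 0.06, and Serpinh1, the collagen chaperone HSP47, by 0.55 ± 0.04. Of 8 genes of propeptide cleavage 4 rose (3 higher and 2 lower with library size only), with Tll1 up by 1.80 ± 0.12. Of 7 crosslinking genes 5 rose (3 higher and 1 lower with library size only), with Lox, a lysyl oxidase, up by 1.20 ± 0.04 and Loxl2 by 0.83 ± 0.04. The list of collagen breakdown split: of 13 genes, 5 rose and 4 fell (5 higher and 7 lower by library size alone). It also holds inhibitor genes, so its counts and medians do not give a direction of breakdown. The collagenase Mmp13 rose by 3.76 ± 0.24 and the inhibitor Timp3 by 0.81 ± 0.05, while the gelatinase Mmp2 fell by 0.64 ± 0.05 and the lysosomal protease Ctsl by 0.48 ± 0.04. Of 8 collagen receptors 6 rose (3 with library size only), with Itga11, the integrin subunit of fibroblasts for fibrillar collagen, up by 0.96 ± 0.08. Of 11 fibril regulators 6 rose and 1 fell (5 higher and 1 lower by library size alone); Thbs1, Tnc and Fn1 rose by 1.48, 1.35 and 0.59, and Dcn, the proteoglycan decorin on collagen fibrils, fell by 0.58 ± 0.06. Of 13 laminins and other basement membrane partners 9 rose and 1 fell (6 higher and 3 lower by library size alone), with Nid2 up by 0.91 ± 0.05 and Nid1 by 0.43 ± 0.04. The median log2 fold changes of these 8 lists, in the order given, were 0.42, 0.23, 0.20, 0.31, -0.05, 0.40, 0.39 and 0.20, beside -0.0044 over all genes tested.

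Cell type markers were read beside the same shares of all genes in MI against Sham (22.8% higher and 20.8% lower). Of 12 mural cell markers (smooth muscle and pericytes) 10 rose, none was at 0, and their summed level was 2417 to 2595 FPKM for Sham, 3376 to 3611 for MI, 2745 to 2844 under Fer-1 and 3242 to 3652 under Lip-1. Tagln rose by 1.52 and Acta2 by 0.55. Of 12 fibroblast markers 6 rose and 2 fell, none was at 0, and their sum was 1181 to 1290.0 FPKM for Sham, 969 to 1071 for MI, 1144 to 1350.3 under Fer-1 and 1260.0 to 1368 under Lip-1, with Meox1 and Pdgfra up by 2.77 and 1.21 and Dcn and Tcf21 down by 0.58 and 0.46. Dcn, Lum and Ddr2 stand in 2 of the lists. Of 9 epicardial and mesothelial markers 7 rose (6 higher and 2 lower with library size only), Krt18 by 2.17 and Krt8 by 1.34, none was at 0, and their sum was 61.3 to 65.3 FPKM for Sham, 92.5 to 95.7 for MI, 79.4 to 82.7 under Fer-1 and 85.3 to 85.8 under Lip-1. Endothelial markers were near the shares of all genes, with 3 of 11 higher and 2 lower, Cldn5 at 0 in 4 samples and sums of 81.9 to 84.0 FPKM in Sham and 80.2 to 88.0 in MI. Cardiomyocyte markers were also near them, with 2 of 11 higher and 3 lower; of 9 macrophage and leukocyte markers 5 rose and 1 fell with Cd3e at 0 in every sample, of 7 cartilage and bone markers 4 rose, and of 8 Schwann cell and skeletal muscle markers none was called. Scaled by library size alone, the counts higher and lower were 9 and 1 of mural, 5 and 2 of fibroblast, 3 and 6 of endothelial, 0 and 5 of cardiomyocyte, and 4 and 1 of macrophage and leukocyte markers. Marker counts at that scaling stand beside 2414 higher and 5943 lower of all 16910 genes, not beside the shares above. The part of these cell types in the collagen values was not tested.

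The effect of ferrostatin-1 in ligated ventricle was addressed by setting Fer-1+MI against MI. Fer-1+MI had lower levels of 5 of 10 fibrillar chains (Col1a1, Col5a1, Col5a2, Col5a3 and Col11a1), 3 of 9 fibril-associated chains (Col12a1, Col14a1 and Col16a1), and of Col8a1, Col8a2, Col6a1, Col4a3 and Col4a5. Col3a1, Col4a1 and Col4a2 did not pass. Of 38 chains none was higher (beside 2.29% of all genes) and 13 were lower (34.2%, beside 3.07% of all genes). By type, 5 of 10 fibrillar chains were lower (median log2 fold change -0.23), 2 of 6 basement membrane chains (-0.23) and 6 of 22 others (-0.24), beside 0.0006 over all genes. Col9a1 was at 0 in every Fer-1+MI library, so it counts in the last median only as lying below it. Library size alone gave 11 lower and none higher, beside 439 lower and 472 higher of all 16910 genes. DESeq2 also called none higher. At an unadjusted p under 0.05 in edgeR 2 chains were higher (Col6a6 and Col11a2) and 19 lower. The share of all genes at that unadjusted threshold was not counted.

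With the values in every sample given above, Col8a2 fell by 0.56 ± 0.06 (adjusted p = 1.7e-05), from a mean of 128 ± 7.95 to 87.1 ± 3.24 CPM (SD, n = 3). Col12a1 fell by 0.34 ± 0.04 (adjusted p = 4.7e-05) and Col4a5 by 0.39 ± 0.05 (adjusted p = 7.3e-05). Among fibrillar chains, Col5a1 fell by 0.35 ± 0.05 (adjusted p = 2.0e-04), Col1a1 by 0.28 ± 0.04 (adjusted p = 2.4e-04), and Col5a2, Col5a3 and Col11a1 by 0.26, 0.41 and 0.64. In these 8 chains no Fer-1+MI sample overlapped an MI sample; over all 38, the samples did not overlap in 18 lower chains (beside 11.2% of all genes) and 1 higher (beside 9.79%). Col14a1, Col16a1 and Col8a1 fell by 0.20, 0.28 and 0.63, and the call of Col8a1 was lost without Fer-1+MI replicate 1 (adjusted p = 0.0523). Col6a1 and Col4a3 fell by 0.16 and 0.33, with adjusted p of 0.0394 and 0.0415, and each call was lost in 8 of 12 fits that left out 1 library. Col3a1 had -0.19 ± 0.06 (adjusted p = 0.104), with 1 Fer-1+MI sample inside the MI range. Col4a1 and Col4a2 had -0.06 and -0.05, with 95% intervals of -0.17 to 0.05 and -0.15 to 0.05. The row of Col1a2 with more reads fell by 0.28 ± 0.05 (adjusted p = 0.00126), while the other Col1a2 row had -0.41 ± 0.17 (adjusted p = 0.26) and did not pass. The row of the type VI alpha 3 chain fell by 0.43 ± 0.06 (adjusted p = 2.3e-04).

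The list counts with Fer-1 against MI stand beside 2.29% of all genes higher and 3.07% lower. Counts by library size alone stand beside 472 higher and 439 lower of all 16910 genes. Of 14 hydroxylation genes 4 fell (2 by library size alone), P4ha3 by 0.64 and P4ha1 by 0.21, and of 11 chaperone and secretion genes 2 fell (1 by library size alone), Serpinh1 by 0.31 and Sec23a by 0.18. Of 8 propeptide genes Pcolce fell by 0.20. Of 7 crosslinking genes Loxl1 and Loxl2 fell by 0.30 and 0.28 while the transglutaminase Tgm2 rose by 0.42. Of 13 genes in the breakdown list Mmp2 and Ctsl rose by 0.46 and 0.17 and none fell. Of 8 receptors Itga11 fell by 0.57. Of 11 fibril regulators Thbs1, Fn1 and Tnc fell by 0.34, 0.27 and 0.34, and Dcn and Fmod rose by 0.51 and 0.30. Of 13 basement membrane partners Lamb2 and Nid2 fell by 0.18 and 0.19. The medians of these 8 lists, in that order, were -0.10, -0.07, -0.05, -0.14, 0.15, -0.03, -0.10 and -0.07, beside 0.0006 over all genes. Of 12 mural markers 4 fell, with Tagln down by 0.78, of 12 fibroblast markers 3 fell and 1 rose (2 lower and 2 higher by library size alone), of 9 epicardial markers 3 fell, endothelial markers had 1 of 11 higher and 1 lower, and none of the cardiomyocyte, macrophage, cartilage and Schwann cell lists was called. The other list counts were the same by library size alone. The part of the mural and epicardial markers in the collagen values was not tested.

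Lip-1+MI against MI asks the same of liproxstatin-1, and shares the MI samples with the comparison above. Lower here were 5 of 10 fibrillar chains (Col1a1, Col3a1, Col5a1, Col5a2 and Col11a1), 3 of 9 fibril-associated chains (Col12a1, Col14a1 and Col16a1), and Col8a1, Col8a2, Col17a1 and Col4a5. Col5a3, Col4a1 and Col4a2 did not pass. Of 38 chains none was higher (beside 3.05% of all genes) and 12 were lower (31.6%, beside 3.05% of all genes). The same numbers were called with library size only, beside 473 higher and 543 lower of all 16910 genes. By type, 5 of 10 fibrillar chains were lower (median log2 fold change -0.31), 1 of 6 basement membrane chains (-0.02) and 6 of 22 others (-0.21), beside -0.0058 over all genes. At an unadjusted p under 0.05 in edgeR, for which no share of all genes was counted, 1 chain was higher and 14 lower. DESeq2 called 1 chain higher, and it was the same one, Col4a4 (value 0.16 ± 0.05, adjusted p = 0.0918 in edgeR).

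Col1a1 fell by 0.41 ± 0.04 (adjusted p = 4.6e-06), from 15681 ± 671 to 11827 ± 178 CPM. Col14a1 fell by 0.38 ± 0.04 (adjusted p = 1.7e-05) and Col3a1 by 0.47 ± 0.06 (adjusted p = 1.7e-04). Col5a2 fell by 0.33 ± 0.05 (adjusted p = 2.5e-04), Col5a1 by 0.30 and Col11a1 by 0.67. In these chains no Lip-1+MI sample overlapped an MI sample; over all 38, the samples did not overlap in 14 lower chains (beside 12.1% of all genes) and 1 higher (beside 11.5%). Col12a1 and Col16a1 fell by 0.23 and 0.25, and these 8 calls held without any 1 library. Col8a1 and Col8a2 fell by 0.63 and 0.26, and both calls were lost without Lip-1+MI replicate 3 (adjusted p = 0.0548 and 0.0741) and that of Col8a2 also without MI replicate 2 (0.0572). Col17a1 fell by 0.50 ± 0.13 (adjusted p = 0.0287), lost without MI replicate 1 or 3 or Lip-1+MI replicate 2 or 3 (up to 0.145). Col4a5 fell by 0.17 ± 0.05 (adjusted p = 0.0449), lost in 9 of 12 fits that left out 1 library (up to 0.202). Col5a3 had -0.05 ± 0.08 (adjusted p = 0.782). Col4a1 and Col4a2 had -0.03 and -0.02, with 95% intervals of -0.14 to 0.08 and -0.12 to 0.08. The row of Col1a2 with more reads fell by 0.42 ± 0.05 (adjusted p = 1.7e-05), while the other Col1a2 row had -0.27 ± 0.17 with overlapping samples (adjusted p = 0.474) and did not pass. The row of the type VI alpha 3 chain fell by 0.43 ± 0.06 (adjusted p = 2.2e-04).

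The list counts with Lip-1 stand beside 3.05% of all genes higher and 3.05% lower. Counts by library size alone stand beside 473 higher and 543 lower of all 16910 genes. Of 14 hydroxylation genes 1 fell (Plod2, -0.19; 2 lower by library size alone), and of 11 chaperone and secretion genes Serpinh1 and Fkbp10 fell by 0.35 and 0.17. Of 8 propeptide genes Adamts14 fell by 0.32, and of 7 crosslinking genes Pxdn, Loxl2 and Loxl1 fell by 0.33, 0.27 and 0.28. Of 13 genes in the breakdown list 3 rose and 1 fell, with Ctsl up by 0.53, Mmp2 by 0.53 and Mmp14, a membrane collagenase, by 0.27. Of 8 receptors Itga11 and Itga1 fell by 0.51 and 0.21. Of 11 fibril regulators Dcn and Fmod rose by 0.68 and 0.35 and Tnc and Bgn fell by 0.31 and 0.17 (2 higher and 3 lower by library size alone). Of 13 basement membrane partners Nid2 fell by 0.38. The medians of these 8 lists were -0.05, -0.07, -0.08, -0.15, 0.11, -0.05, -0.11 and -0.07, beside -0.0058 over all genes. Of 12 mural markers 4 fell, although their summed FPKM overlapped MI, and of 12 fibroblast markers 2 rose and 1 fell. Of 9 epicardial markers 2 fell, of 11 endothelial markers 2 fell with Vwf down by 0.71, of 11 cardiomyocyte markers 2 fell, and of 8 Schwann cell and skeletal muscle markers 1 rose (none by library size alone). The other list counts were again the same by library size alone. Their part in the collagen values was not tested.

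Lip-1+MI and Fer-1+MI were set against each other directly, at doses that differ (3 and 1 mg per kg per day). The basement membrane chains Col4a3, Col4a4 and Col4a5 and the chains Col5a3 and Col8a2 were higher with Lip-1, and Col3a1 and Col14a1 were lower. Of 38 chains 5 were higher (13.2%, beside 1.74% of all genes) and 2 lower (5.26%, beside 1.41%). Library size alone gave 5 higher and 3 lower, beside 234 higher and 297 lower of all 16910 genes. Col4a4 was higher by 0.29 ± 0.05 (adjusted p = 0.0039), Col8a2 by 0.30 ± 0.06 (adjusted p = 0.00675) and Col4a5 by 0.22 ± 0.05 (adjusted p = 0.0118). Col4a3 was higher by 0.41 ± 0.09 (adjusted p = 0.0161) and Col5a3 by 0.35 ± 0.08 (adjusted p = 0.0143). Col3a1 fell by 0.29 ± 0.06 with Lip-1 against Fer-1 on the log2 scale (adjusted p = 0.0171) and Col14a1 by 0.17 ± 0.04 (adjusted p = 0.0266). In all 7 the samples of the groups did not overlap, as in 8 higher chains (beside 9.88% of all genes) and 7 lower (beside 8.91%) of the 38. Only the calls of Col4a4 and Col8a2 held without any 1 library. Col1a1 had -0.12 ± 0.04 (95% interval -0.21 to -0.03, adjusted p = 0.125) and was called lower with library size only (0.0352), Col4a1 0.03 ± 0.05 (-0.08 to 0.14) and Col12a1 0.11 ± 0.04 (0.02 to 0.20). Of the other lists, Tgm2 and Pxdn had -0.31 ± 0.05 and -0.23 ± 0.05, Ctsl 0.36 ± 0.04 and the endothelial marker Vwf -0.80 ± 0.06, all called.

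The treated groups were also set against Sham. These comparisons share the Sham samples with MI against Sham, so values are given side by side. In Fer-1+MI 19 of 38 chains were higher (50%, beside 19.6% of all genes) and 3 lower (7.89%, beside 16.7%). Library size alone gave 11 higher and 3 lower, beside 1980 higher and 5325 lower of all 16910 genes. In Lip-1+MI 18 were higher (47.4%, beside 20.8% of all genes) and 1 lower (2.63%, beside 18%). Library size alone gave 10 higher and 4 lower, beside 1994 higher and 5909 lower of all 16910 genes. Col12a1 was higher by 0.51 ± 0.04 in Fer-1+MI (adjusted p = 1.1e-08) and by 0.62 ± 0.04 in Lip-1+MI (adjusted p = 7.3e-10), beside 0.85 in MI. Col17a1 was higher by 1.49 ± 0.14 and 1.03 ± 0.14, beside 1.52. Col14a1 was higher by 0.38 ± 0.04 and 0.20 ± 0.04, beside 0.58, and its call in Lip-1+MI was lost with library size only (adjusted p = 0.537). Col5a3 was higher by 0.40 ± 0.08 and 0.75 ± 0.08, beside 0.80. Col8a2 was higher by 0.17 ± 0.06 and 0.47 ± 0.06, beside 0.73, and its call in Fer-1+MI was lost with library size only (0.752) and without Sham replicate 3 (0.185) or Fer-1+MI replicate 1 (0.09) or 2 (0.0838). Col1a1 was higher by 0.36 ± 0.04 and 0.24 ± 0.04, beside 0.65, and the Lip-1+MI call was lost with library size only (0.139). Col3a1 was higher by 0.25 ± 0.06 in Fer-1+MI, a call lost with library size only (0.233), while in Lip-1+MI it had -0.04 ± 0.06 (95% interval -0.18 to 0.11, adjusted p = 0.685) and was called lower with library size only. Col4a3 and Col4a4 fell by 0.59 ± 0.09 and 0.22 ± 0.05 in Fer-1+MI on the log2 scale (adjusted p = 5.5e-05 and 0.00335), and had -0.18 and 0.07 in Lip-1+MI (adjusted p = 0.138 and 0.319). Col9a1, at 0 in every Fer-1+MI library and at most 0.283 CPM in Sham, was also called lower there, a call lost in 8 of 12 fits that left out 1 library. Col11a2 fell by 1.09 ± 0.38 in Lip-1+MI (adjusted p = 0.0285), a call lost without Sham replicate 1 or 3 or Lip-1+MI replicate 1 or 3 (up to 0.108).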

How the data were processed

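The authors deposited whole-number counts per gene (32623 genes, not normalised) and FPKM per gene (23660 genes, per gene length and library size). Per the submitters' processing notes, tools included HISAT2 2.2.1 and StringTie 2.1.6, with cutadapt 1.9 listed beside FastQC, edgeR and DESeq2. No source used here says whether counting used strand.

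Total counts of 45.5 to 60.8 M per sample came from poly(A) libraries, per the labels' protocols. The deposited counts were filtered with filterByExpr (minimum count 10, total 15), which left 16910 genes. They were scaled by TMM and tested with robust quasi-likelihood F tests in edgeR 4.0.16 (R 4.3.3), with all 12 samples in 1 fit, no term but group, and 8 residual degrees of freedom. All 6 contrasts were adjusted by Benjamini-Hochberg over all genes at 0.05, and the code was tested on simulated data. Values are mean ± SD (n = 3) or log2 fold change ± SE, with 95% intervals. The intervals use the 8 residual degrees of freedom only, while the tests add prior degrees of freedom (median 9.73). An interval can thus be wider than its p-value from edgeR implies. Ratios of the deposited FPKM used exact permutation tests. Alternatives were DESeq2 1.42.0 and its size factors, library size only, no filter, only the groups compared, a replicate block, limma 3.58.1 on log2(FPKM + 1 or 0.1), and leaving out each library.

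Chains and lists were chosen with earlier results of these data known. Values in every sample are given for 5 set chains and for chains with the smallest p per contrast (6 per direction in MI against Sham, 4 in each treated group against MI, 3 otherwise), with up to 3 genes per list and direction. Chains under 0.1 FPKM in every group are named as low only. Of the listed genes 10 were not found and are not analysed here. Promoters come from mouse RefSeq (GRCm38.p6). A floor of 3 counts is 0.0469 to 0.0663 CPM, for counting error only.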

Additional observations from a re-analysis of the deposited data

Results flagged for a closer look

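In 7 chains the 2 treated groups, each ligated, differed from each other by the direct test in edgeR, with doses that differ. The log2 fold change of Lip-1+MI over Fer-1+MI was 0.413 for Col4a3, 0.354 for Col5a3, 0.3 for Col8a2, 0.2908 for Col4a4 and 0.2235 for Col4a5, and it was -0.1718 for Col14a1 and -0.2863 for Col3a1. The groups' samples did not overlap in any of the 7. Without 1 library, the calls lost were Col3a1 (Fer-1+MI 3, Lip-1+MI 1 or 2; adjusted p = 0.055 to 0.0945), Col4a3 (Fer-1+MI 1 or Lip-1+MI 1; 0.0581 and 0.0752), Col4a5 (Fer-1+MI 3, Lip-1+MI 1 or 2; 0.0613 to 0.0665), Col5a3 (Fer-1+MI 2, Lip-1+MI 1 or 2; 0.0537 to 0.0814) and Col14a1 (Fer-1+MI 2 or 3, any Lip-1+MI library; 0.0607 to 0.129).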

How the results depend on the processing

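DESeq2's size factors and the fit without a filter kept every count of chains within 1.5 times of the reported one. With library size only, MI against Sham had 4 lower chains, Fer-1+MI against Sham 11 higher, and Lip-1+MI against Sham 10 higher and 4 lower; the centre of all genes moves with this scaling. DESeq2 called 1 chain higher in Lip-1+MI against MI and 5 lower in Lip-1+MI against Fer-1+MI, and the fit of only the groups compared called 1 lower there. In limma with FPKM + 1 or + 0.1, and with + 1 unfiltered, Lip-1+MI against Fer-1+MI had 1, 1 and 0 higher and 0 lower in each, Fer-1+MI against Sham 9 higher and Lip-1+MI against Sham 10 higher in each, with 2 lower in the latter unfiltered. The value turned for Col18a1 in MI against Sham (-0.01348 with library size only, -0.007411 and -0.007508 in limma, -0.007411 unfiltered), for Col6a2 in Fer-1+MI against Sham (-0.01624, -0.002353, -0.002357, -0.002353) and for Col6a2 in Lip-1+MI against Sham (-0.00683 with library size only). The cause was not tested.

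Leaving out 1 library gave, for higher and lower chains, 20 to 24 and 0 to 2 in MI against Sham, 0 and 11 to 13 in Fer-1+MI against MI, 0 to 1 and 8 to 12 in Lip-1+MI against MI, 2 to 5 and 0 to 2 in Lip-1+MI against Fer-1+MI, 17 to 20 and 2 to 3 in Fer-1+MI against Sham, and 18 to 21 and 0 to 2 in Lip-1+MI against Sham. The log2 differences of the ratios stayed between 0.0514 and 0.0618 for Col1a1 to Col1a2 and between 0.0439 and 0.0601 for Col4a1 to Col4a2. With only the Col1a2 row of more reads, chosen after seeing the data, the first was 0.0632 (exact permutation p = 0.5). Samples with the same replicate number did not deviate together (correlations -0.0236 to 0.0879); with replicate as a block, the counts were 23 and 2, 0 and 14, 1 and 12, 5 and 2, 19 and 2, and 19 and 1 in the order above. Chains near the floor of 3 counts rest on few counts. How large a change could be detected in chains under 1 CPM was not tested.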
